A study of Homo sapiens with 2 samples.

Results

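ATF4 and DDIT3, 2 transcription factors of the integrated stress response, were examined together with 8 of their known target genes in amino acid synthesis and stress, namely ASNS, PHGDH, PSAT1, PSPH, CHAC1, TRIB3, DDIT4 and SESN2. These 10 genes were taken by symbol from a table of 18930 genes. All 10 had counts, and all 10 were among the 16210 genes that had 10 or more reads in the sum of both libraries, which are called the genes tested although no test was possible. The table holds bulk RNA sequencing of 1 library with the label DR, which in the study stands for melanoma cells made resistant to the DNA alkylating drug dacarbazine (DTIC) by exposure to rising concentrations, and 1 library with the label WT, the wild-type control. Both labels name the human melanoma line A375, grown in DMEM with serum, and give both libraries a treatment of 105 days with an agent spelled DITC. Whether the wild-type cells were treated was not resolved here. The 2 count columns were matched to the libraries through sample descriptions that differ by 1 punctuation mark and do not mention wild type. The title of the WT-labelled sample does name wild type, and that of the DR-labelled sample shares the punctuation of its description. Every direction rests on that match.

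The cell type named in the labels was checked against marker genes. Of 12 melanocytic markers, 10 had counts, at 0 to 34.5 CPM (reads scaled to a common library size by edgeR's TMM factors) in the DR-labelled library and 0 to 34.8 CPM in the WT-labelled library. Their median was 2.43 CPM in the DR-labelled library and 2.46 CPM in the WT-labelled library. MITF was the highest, at 34.5 and 34.8 CPM, followed by GPM6B at 26.4 and 19.8 CPM. SOX10, a defining factor of the melanocytic lineage, had 3 reads in the DR-labelled library and 0 in the WT-labelled library. The pigment enzyme gene TYRP1 had 0 and 17 reads. The 12 plasma cell markers lay between 1.46 and 7772 CPM in the DR-labelled library and between 0.402 and 4806 CPM in the WT-labelled library. IGLL5 was the highest of them and FCRL5 the lowest, and the medians were 426 and 357 CPM. These values go against the labelled cell type, and the libraries are therefore called by their labels only. The totals were 54878310 reads for the DR-labelled library and 35294629 for the WT-labelled library. With 1 library per label there is no replicate check, and no p-value is given. Each interval below is a 95% interval for read counting alone, and each difference is one between 2 libraries and not between conditions. In such bulk RNA, fewer cells of a type and less RNA per cell cannot be told apart.

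The integrated stress response is a pathway in which a family of kinases phosphorylates the translation factor eIF2 when a cell lacks amino acids, accumulates misfolded protein or meets other stress. General protein synthesis then slows, while translation of the ATF4 message increases. ATF4 protein enters the nucleus, pairs with other basic leucine zipper (bZIP) proteins and switches on genes that make, import and load amino acids onto tRNA, and later genes that damp the response or promote cell death, often together with DDIT3 (also called CHOP). Because ATF4 is controlled largely at translation, the level of its mRNA does not measure the activity of its protein. The phosphorylation of eIF2 is also an arm of the unfolded protein response of the endoplasmic reticulum.

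ATF4 with a C/EBP partner binds a composite element that begins with the letters TGATGNAA. This motif was searched on both strands of RefSeq promoter windows of GRCh38.p14, each running from 250 bases before to 50 bases after a transcription start. Of the 10 genes, 9 had at least 1 window (all but PSPH), with 14 windows in all. Of these 9 genes 2 held the motif, ASNS and CHAC1, each in 1 window. Of the 12803 genes tested with a window, 3.05% held it in at least 1 window. Over all 35116 windows, 3.62% held it. The stretches around both matches are shown because CHAC1 is the gene with the largest difference of the 10 and ASNS is the classical amino acid response gene. Each is written 5′ to 3′ on the strand of the gene, with the matched letters in capitals. The ASNS stretch is the minus strand of chr7:97872429-97872516, with the motif as spelled from 68 to 61 bases before the start. The CHAC1 stretch is the plus strand of chr15:40953222-40953309, with the motif in reverse complement from 209 to 202 bases before the start.
ASNS: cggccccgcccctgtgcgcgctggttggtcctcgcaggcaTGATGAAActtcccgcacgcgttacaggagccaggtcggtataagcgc
CHAC1: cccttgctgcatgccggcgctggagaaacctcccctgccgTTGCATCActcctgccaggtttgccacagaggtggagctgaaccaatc
The motif was chosen after the table had been read. A match is a description of letters and was not tested as a binding site, and for the other genes with a window the letters were merely not found there.

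Most of the 10 genes had lower levels in the DR-labelled library than in the WT-labelled library, by less than 2-fold for all but CHAC1. The log2 fold change, taken on log2 (CPM + 0.5) as DR over WT, was below 0 for 9 of the 10 genes and ranged from -1.11 for CHAC1 to 0.05 for PHGDH. Its median was -0.49, against 0.01 for all genes tested. A gene was called where the log2 fold change was at least 1 in size. By this threshold 1 of the 10 genes was called lower, CHAC1, and 0 were called higher, while 4.19% of all genes tested were called lower and 7.42% higher. The counting interval lay wholly below 0 for 8 of the 10 genes, included 0 for TRIB3 and PHGDH, and lay above 0 for none of the 10. Of all genes tested, 34.9% had an interval below 0 and 35.4% an interval above 0, so at this depth small differences pass read counting for most genes. Among the 10719 genes at least as abundant as CHAC1, 43.8% had an interval below 0 and the median log2 fold change was -0.03.

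**Figure D1:**
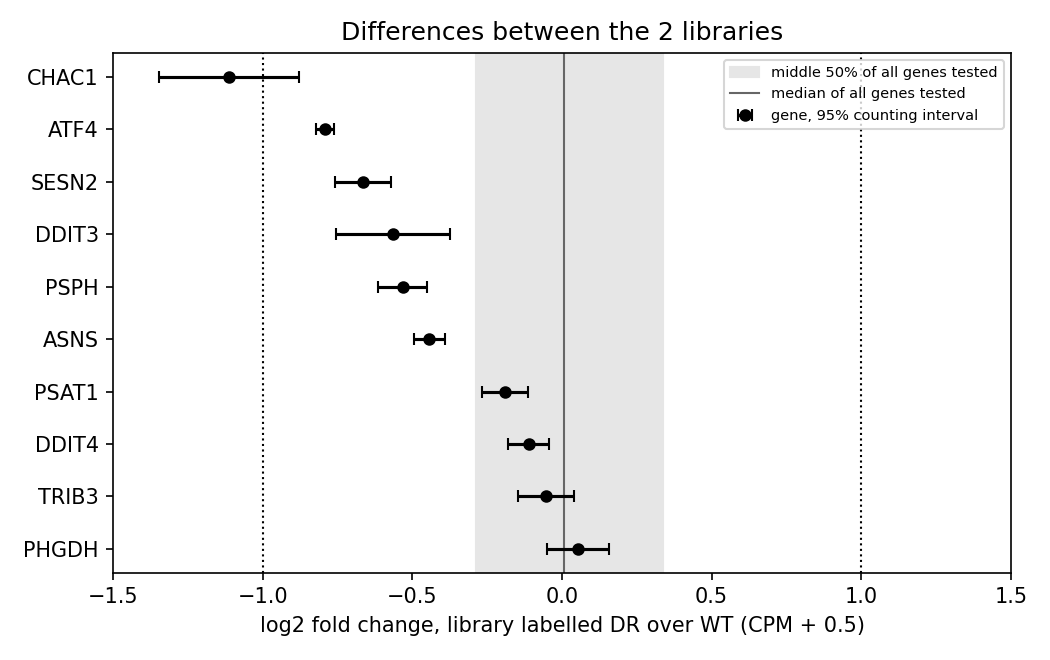
Horizontal axis, log2 fold change of the DR-labelled library over the WT-labelled library on log2 (CPM + 0.5); each point is a gene and each bar its 95% counting interval, with the middle 50% of all genes tested shaded and dotted lines at the 2-fold threshold. CHAC1 (-1.11) alone lies past the threshold, ATF4, SESN2, DDIT3, PSPH and ASNS lie below the shaded range, and PSAT1, DDIT4, TRIB3 and PHGDH lie within it.

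By read counting alone, the 10 genes did not share a single log2 fold change. The interval of ATF4 lay apart from those of the 9 other genes, as did that of CHAC1, and the interval of each remaining gene lay apart from 6 or 7 of the 9 others. The share of gene pairs that lie apart over all genes tested was not computed, so these counts are not shown to be particular to the 10 genes. Variation between cultures is not covered by these intervals. The log2 fold changes of PHGDH, TRIB3, DDIT4 and PSAT1 were -0.19 or above, and those of the remaining genes ran from ASNS at -0.44 downward. This division was read from the values and is not their widest gap, which lay between ATF4 (-0.79) and CHAC1 (-1.11). The serine pathway and the mTORC1 inhibitors each had genes on both sides of the division.

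ATF4 (NCBI Gene 468), the central factor of the pathway, had 18258 reads in the DR-labelled library and 19780 reads in the WT-labelled library, although the DR-labelled library was sequenced more deeply. After scaling, ATF4 stood at 328 CPM in the DR-labelled library and at 568 CPM in the WT-labelled library, 1.73-fold higher in the latter on the scale of CPM + 0.5. The log2 fold change of -0.79 (-0.82 to -0.76) lay at percentile 6.73 of all genes tested. ATF4 was the most abundant of the 10 genes in both libraries. It took 44.1% of their summed reads in the DR-labelled library and 52.2% in the WT-labelled library. DDIT3 (NCBI Gene 1649) encodes a bZIP factor that ATF4 induces and that is known for its part in stress-linked cell death. DDIT3 had 430 reads (7.72 CPM) in the DR-labelled library and 406 reads (11.7 CPM) in the WT-labelled library, with a log2 fold change of -0.57 (-0.75 to -0.38). Per kb of gene length ATF4 exceeded DDIT3 29.4-fold in the DR-labelled library and 33.7-fold in the WT-labelled library, so DDIT3 was low beside ATF4 in both. DDIT3 overlaps MARS1 in RefSeq, and its estimated counts were fractional. Whether strand was used in counting is not given in the sources used here, so some of its reads could belong to that neighbour.

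ASNS (NCBI Gene 440) makes asparagine from aspartate and glutamine and is a standard readout of amino acid shortage. It had 6428 reads (115 CPM) in the DR-labelled library and 5470 reads (157 CPM) in the WT-labelled library. On the scale of CPM + 0.5 it was 1.36-fold higher in the WT-labelled library, with a log2 fold change of -0.44 (-0.50 to -0.39). In RefSeq the gene overlaps 3 other entries, 1 lncRNA and 2 pseudogenes, none of which is a protein-coding gene.

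The serine pathway converts a glycolytic intermediate to serine in 3 steps, by PHGDH, PSAT1 and PSPH in that order. PHGDH (NCBI Gene 26227), the entry enzyme, had 1993 reads (35.8 CPM) in the DR-labelled library and 1200 reads (34.5 CPM) in the WT-labelled library, and its log2 fold change of 0.05 (-0.05 to 0.16) was not distinguishable from 0 by read counting. PSAT1 (NCBI Gene 29968), the transaminase of the middle step, stood at 56.2 CPM in the DR-labelled library and 64.2 CPM in the WT-labelled library, a log2 fold change of -0.19 (-0.27 to -0.11). PSPH (NCBI Gene 5723), the phosphatase of the last step, stood at 44.7 and 64.9 CPM, respectively, a log2 fold change of -0.53 (-0.62 to -0.45). The log2 fold change was lower at each later step, an order that was read from the values and not tested. The 3 intervals did not overlap, but they cover read counting alone. Per kb, PSPH and PHGDH were nearly equal in the DR-labelled library (ratio 1.01), while PSPH exceeded PHGDH 1.52-fold in the WT-labelled library. PSPH has a near-identical pseudogene copy and fractional estimated counts, so that its value depends on how shared reads were split.

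CHAC1 (NCBI Gene 79094) breaks down glutathione and is among the targets that depend jointly on ATF4 and its partners. It had 212 reads (3.81 CPM) in the DR-labelled library and 307 reads (8.82 CPM) in the WT-labelled library. On the scale of CPM + 0.5 it was 2.16-fold higher in the WT-labelled library, and the log2 fold change of -1.11 lay at percentile 3.44 of all genes tested. CHAC1 was also the least abundant of the 10 genes, and its interval (-1.35 to -0.88) includes the threshold of -1. Its call is therefore not secured by read counting. A pseudocount of 5 CPM in place of 0.5 moved the log2 fold change to -0.65 and ended the call. TRIB3 (NCBI Gene 57761), a pseudokinase that binds ATF4 and damps its action, had 2333 reads (41.9 CPM) in the DR-labelled library and 1515 reads (43.5 CPM) in the WT-labelled library, with a log2 fold change of -0.05 (-0.15 to 0.04). Of the 10 genes, TRIB3 and PHGDH were the closest to equal levels.

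DDIT4 (NCBI Gene 54541) and SESN2 (NCBI Gene 83667) both restrain the growth kinase complex mTORC1, DDIT4 through the TSC complex and SESN2 as a leucine sensor that acts on GATOR2. DDIT4 stood at 77.0 CPM in the DR-labelled library and 83.2 CPM in the WT-labelled library, from 4286 and 2896 reads. Its log2 fold change of -0.11 (-0.18 to -0.04) was small beside that of SESN2. SESN2 had 1857 reads (33.4 CPM) in the DR-labelled library and 1851 reads (53.2 CPM) in the WT-labelled library, a log2 fold change of -0.67 (-0.76 to -0.57). Per kb DDIT4 exceeded SESN2 4.67-fold in the DR-labelled library and 3.17-fold in the WT-labelled library.

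Levels were compared between genes per kb of the gene length given in the table. ATF4 led at 222 CPM per kb in the DR-labelled library and 385 in the WT-labelled library, at percentiles 98.5 and 99.1 of the genes tested. ASNS followed at 54.6 and 74.3, DDIT4 at 43.9 and 47.5 and PSAT1 at 24.8 and 28.3. At the lower end SESN2 stood at 9.40 and 15.0, DDIT3 at 7.57 and 11.4, and CHAC1 at 1.98 and 4.58. The order was the same in both libraries apart from TRIB3 and PSPH, which changed places. Neighbours in the order lay apart by their 95% Poisson counting intervals, except TRIB3, PSPH and PHGDH, at 17.7 to 18.2 CPM per kb in the DR-labelled library, and TRIB3 and PHGDH in the WT-labelled library. In both libraries 9 of the 10 genes lay above the median of all genes tested (6.45 and 6.42 CPM per kb). CHAC1 was the exception, at percentiles 33.3 and 44.7.

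**Figure D2:**
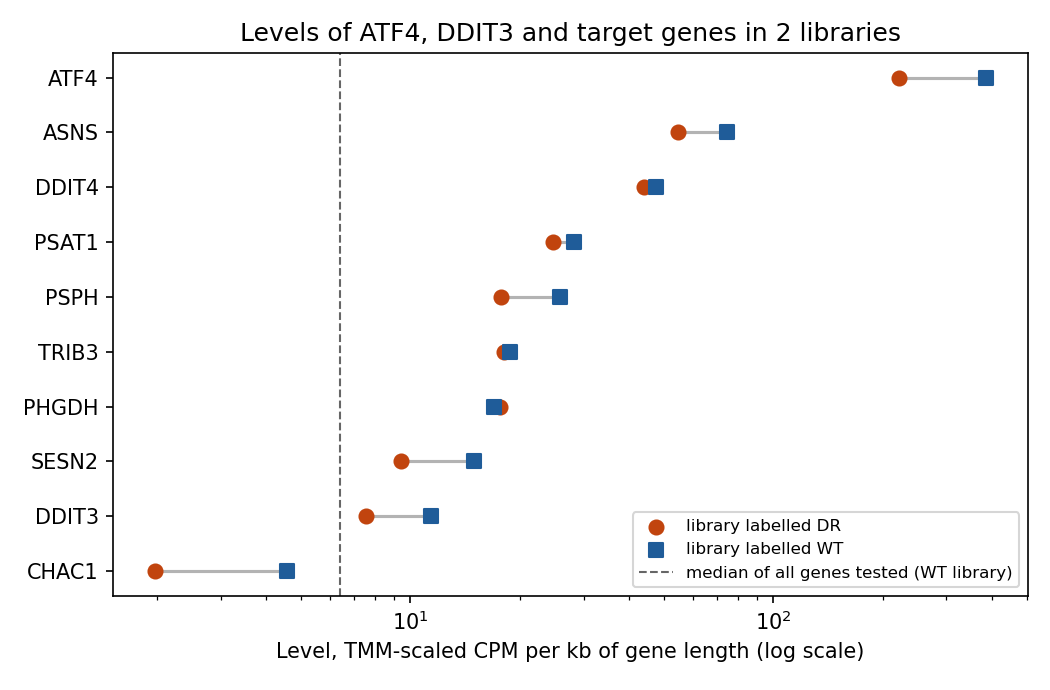
Horizontal axis, level in CPM per kb of gene length on a log scale, for the DR-labelled library (circles) and the WT-labelled library (squares), with a dashed line at 6.42, the median of the WT-labelled library over all genes tested. ATF4 stands far to the right in both (222 and 385), CHAC1 far to the left (1.98 and 4.58), and the circle lies left of the square for every gene but PHGDH.

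The reads of the 10 genes summed to 41415 in the DR-labelled library, 0.0755% of all reads, and to 37919 in the WT-labelled library, 0.107% of all reads. The sum had a log2 fold change of -0.55 (-0.57 to -0.53). Without ATF4, which held much of the sum, it was -0.33 (-0.35 to -0.30). In the annotation that the authors attached to their table, 4 of the 10 genes (ATF4, CHAC1, DDIT3 and TRIB3) carried the term for intrinsic apoptotic signalling in response to endoplasmic reticulum stress, which 17 of 12030 annotated genes tested carried. The median log2 fold change of those 17 genes, these 4 included, was -0.05. Of the 17, 1 was called lower and 1 higher, beside 4.19% and 7.42% of all genes tested. The cytosol was given as a location for 9 of the 10 genes, ATF4 being the exception, and for 3025 of 14219 annotated genes tested (21.3%). The nucleoplasm was given for ATF4, DDIT3 and TRIB3, and for 15.0% of the annotated genes.

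**Figure D3:**
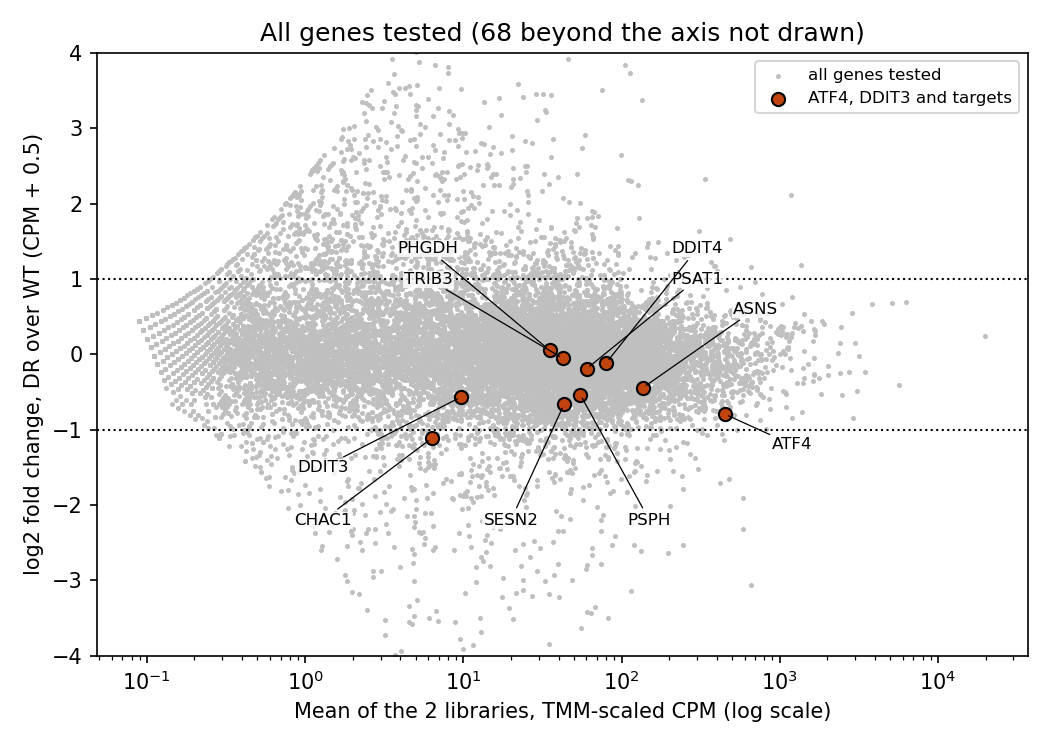
Horizontal axis, mean CPM of both libraries on a log scale; vertical axis, log2 fold change of DR over WT on log2 (CPM + 0.5), drawn from -4 to 4; grey points are the genes tested (68 lie beyond the axis) and filled points the 10 genes, with dotted lines at the 2-fold threshold. Of the 10 genes 9 lie below 0, inside the grey cloud, and CHAC1 is the one past the lower line.

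Upstream of ATF4, 15 genes for the eIF2 kinases and their regulators, the eIF2 alpha subunit, its phosphatase subunits and the eIF2B exchange factor were tested. Of these 1 was called lower, 0 were called higher, and the median log2 fold change was -0.19. The counts called in this list and in each list below stand beside 4.19% lower and 7.42% higher over all genes tested. No count was tested against these shares. The called gene, PPP1R15A (GADD34), is the stress-induced phosphatase subunit that ends the response and is itself an ATF4 target. It stood at 28.5 CPM in the DR-labelled library and 154 CPM in the WT-labelled library, a log2 fold change of -2.42 (-2.50 to -2.34), larger than that of any of the 10 genes. Its constitutive counterpart PPP1R15B had a log2 fold change of -0.45. Among the kinases, EIF2AK3 (PERK, which senses misfolded protein in the endoplasmic reticulum) had -0.19 (-0.25 to -0.12), whereas EIF2AK4 (GCN2, which senses uncharged tRNA) had 0.38 (0.31 to 0.46), EIF2AK1 (HRI, the haem-regulated kinase) 0.36 (0.33 to 0.40) and EIF2AK2 (PKR, activated by double-stranded RNA) 0.23 (0.17 to 0.30). The kinase mRNAs thus lay on both sides of 0. EIF2S1, which encodes the subunit they phosphorylate, had -0.85 (-0.90 to -0.79). Log2 fold changes of the other genes were -0.67 for EIF2B2, -0.50 for EIF2B1, -0.38 for GCN1, -0.30 for DNAJC3, 0.00 for EIF2B4, 0.05 for EIF2B5, 0.10 for IMPACT and 0.27 for EIF2B3.

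Among 21 genes tested in a list of other bZIP factors, 2 were called lower, 0 were called higher, and the median log2 fold change was -0.14. CEBPZ was in the list although it is not a bZIP factor. FOS, an immediate early gene, stood at 9.84 CPM in the DR-labelled library and 111 CPM in the WT-labelled library, a log2 fold change of -3.42 (-3.55 to -3.30). ATF5, the closest relative of ATF4 and also under translational control, stood at 28.4 and 59.3 CPM, respectively, a log2 fold change of -1.05 (-1.14 to -0.95), an interval that includes the threshold. The factors not called lay on both sides of 0. Below it, log2 fold changes were -0.76 for CEBPG, -0.48 for ATF3, -0.42 for CEBPB and -0.54 for NFE2L2. JUND had -0.83, JUN -0.62, ATF6 -0.46, NFE2L1 -0.14 and ATF2 -0.12. On the other side of 0 were CEBPZ at 0.04, FOSL1 at 0.11, FOSL2 at 0.30, JUNB at 0.44 and CREB3 at 0.57. CEBPA (0.75), CEBPD (0.63), BATF (0.24), BATF2 (0.21) and BATF3 (-0.15) each had 135 reads or fewer in either library.

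The amino acid metabolism around the 10 genes was measured by 4 further lists. Of the 12 amino acid transporters tested, 2 were called lower and 0 higher, and the median log2 fold change was -0.52. SLC7A11, the cystine importer, stood at 24.7 CPM in the DR-labelled library and 65.4 CPM in the WT-labelled library (log2 fold change -1.38), and SLC1A5, a glutamine importer with the highest mean level per kb over both libraries, at 279 and 615 CPM (-1.14). Of 21 genes for cytosolic tRNA synthetases and the tRNA exporter XPOT, 4 were called lower and 0 higher, with a median of -0.41. The called genes were TARS (-1.26), GARS (-1.07), WARS (-1.05) and AARS (-1.01), the last with the highest mean level per kb over both libraries, at 355 and 716 CPM. The synthetase genes did not differ as a block, since 13 of the 21 intervals lay below 0 and 6 above it. The call of AARS has an interval of -1.04 to -0.98, and that of WARS an interval of -1.11 to -0.99, so neither is secured by read counting.

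Of 17 genes of serine, glycine and one-carbon metabolism beyond the serine pathway itself, 2 were called lower and 0 higher, with a median log2 fold change of -0.28. ALDH1L2, a mitochondrial folate enzyme and known ATF4 target, stood at 18.5 CPM in the DR-labelled library and 112 CPM in the WT-labelled library (-2.57). GLDC, the decarboxylase of the glycine cleavage system, stood at 44.2 and 112 CPM (-1.33). SHMT2, which splits serine to glycine in mitochondria, was the most abundant per kb and stood at 278 and 305 CPM (-0.13). Of 22 other amino acid enzymes tested, 0 were called lower and 2 higher, with a median of -0.09. GLUL, glutamine synthetase, stood at 108 CPM in the DR-labelled library and 46.7 CPM in the WT-labelled library (1.20), in the opposite direction to ASNS, which uses glutamine. ASS1, which joins citrulline and aspartate, was the most abundant per kb and stood at 279 and 287 CPM (-0.04). The other called gene, PRODH, had 75 reads in the DR-labelled library and 1 in the WT-labelled library, and is named although its mean was under 1 CPM.

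Among 29 further ATF4 targets of stress, feedback and cell death tested, 2 were called lower and 4 higher, with a median log2 fold change of -0.32. PPP1R15A and ATF5, given above, were the genes called lower. BBC3 (PUMA), a pro-apoptotic BH3-only gene, stood at 20.4 CPM in the DR-labelled library and 4.68 CPM in the WT-labelled library (2.01). NDRG1, a stress and hypoxia gene, stood at 135 and 53.9 CPM (1.32), KLHL24 at 73.1 and 32.5 CPM (1.16) and VLDLR, a lipoprotein receptor, at 3.61 and 1.44 CPM (1.09). The interval of VLDLR, 0.73 to 1.44, includes the threshold of 1, so its call is not secured by read counting. TXNIP, an inhibitor of thioredoxin, had the highest mean level per kb over both libraries and stood at 704 and 465 CPM (0.60). The called targets therefore lay on both sides of 0.

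The paralogues of the 10 genes lay on both sides of 0, with a median log2 fold change of 0.43 over 7 genes. DDIT4L, the paralogue of DDIT4, had 1857 reads (33.4 CPM) in the DR-labelled library and 18 reads (0.517 CPM) in the WT-labelled library, a log2 fold change of 5.06 (4.68 to 5.40), whereas DDIT4 itself had -0.11. SESN3 stood at 46.3 and 19.4 CPM (1.23, with an interval of 1.11 to 1.35) and SESN1 at 67.8 and 39.1 CPM (0.79, with an interval of 0.70 to 0.88), against -0.67 for SESN2. The counting interval of every one of the 7 paralogues, and not of these alone, lay apart from that of its relative among the 10 genes. How often pairs of genes lie apart over all genes tested was not computed, so this is not shown to be particular to the paralogues. TRIB1 stood at 57.7 and 152 CPM (-1.38) and TRIB2 at 17.5 and 12.9 CPM (0.43), against -0.05 for TRIB3. CHAC2, with 725 and 695 reads (-0.60), lay on the same side as CHAC1. In all, 2 of 7 paralogues were called lower (TRIB1 and ATF5) and 2 higher (DDIT4L and SESN3). Of 30 genes of mTORC1 and its amino acid and TSC regulators tested, 0 were called lower and 1 higher, with a median log2 fold change of 0.00. The gene called higher was DEPTOR, an mTOR inhibitor, at 250 CPM in the DR-labelled library and 89.0 CPM in the WT-labelled library (1.49). LAMTOR4, with the highest mean level per kb over both libraries, stood at 54.9 and 33.8 CPM (0.69).

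**Figure D4:**
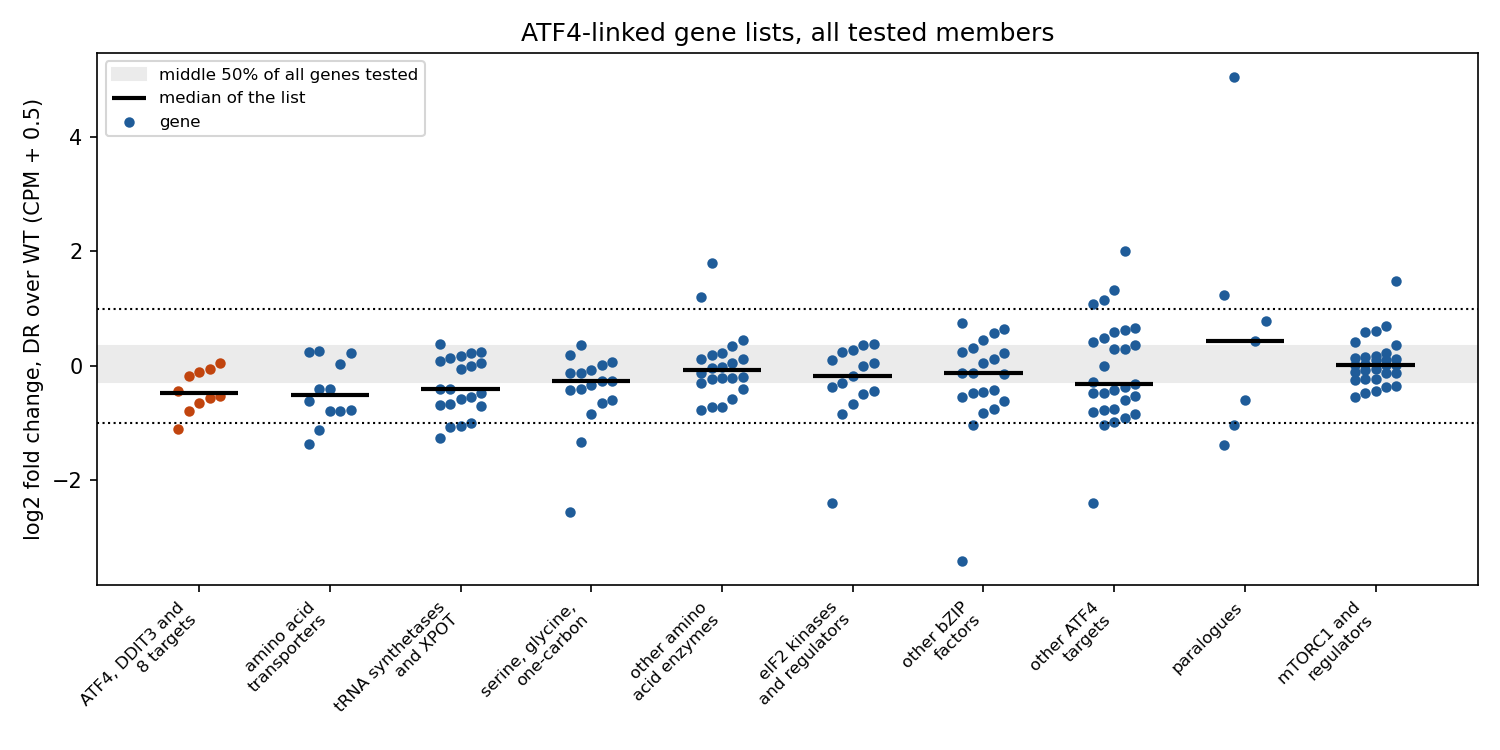
Vertical axis, log2 fold change of DR over WT on log2 (CPM + 0.5); each point is a tested gene of the list named on the horizontal axis, each bar the median of the list, the band the middle 50% of all genes tested, and the dotted lines the 2-fold threshold. The paralogue median (0.43) lies above the band, the medians of the 10 genes (-0.49), the amino acid transporters (-0.52), the tRNA synthetases (-0.41) and the further ATF4 targets (-0.32) lie below the band, and DDIT4L (5.06) and FOS (-3.42) are the farthest points.

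The 9 lists held 171 genes outside the 10, each counted once, of which 167 were tested. Of these 12 were called lower (7.19%) and 9 higher (5.39%), against 4.19% and 7.42% of all genes tested. Their median log2 fold change was -0.13. Promoter windows were available for 129 of them, and 21 of the 129 (16.3%) held the motif TGATGNAA, against 3.05% of all genes tested with a window. The 21 genes with the motif had a median log2 fold change of -0.65. Their interval lay below 0 for 17 (81.0%), with 4 called lower (AARS, GARS, TARS and SLC1A5) and 0 called higher. The 3 with a log2 fold change above 0 were HERPUD1 (0.48), JDP2 (0.65) and SLC1A4 (0.25), named after their values were seen. The 108 listed genes without the motif had a median of -0.05, with the interval below 0 for 52 (48.1%), 5 called lower and 6 higher. Over all genes tested the interval lay below 0 for 34.9%, and over genes at least as abundant as CHAC1 for 43.8%. Most of the 21 are tRNA synthetase genes or amino acid transporters, from the lists with medians of -0.41 and -0.52. Motif and list were therefore not separated. Over all 390 genes tested with the motif, listed or not, the median was -0.05, with 6.41% called lower and 7.69% higher. The lists were drawn from known biology of ATF4 with earlier results of these data known, and the motif was chosen after the table had been read. The difference between listed genes with and without the motif is therefore a description only and was not tested.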

How the data were processed

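The authors deposited 1 table of estimated counts per gene, in 1 column for each of the DR-labelled and WT-labelled libraries, with gene lengths and annotation. Its columns of the authors' comparison (a log2 ratio with p and q values) were not used, and 0 other per-sample columns were present. The submitters' processing notes name Bowtie 0.12.2 and the build hg19. The counting tool and annotation are not given in the sources used here. Of 18930 genes, 663 had no count. The estimated counts, fractional for 9108 genes and for 4 of the 10 members (DDIT3, PSPH, CHAC1 and TRIB3), were rounded, as edgeR needs whole numbers. Library sizes were scaled by TMM (edgeR 4.0.16, R 4.3.3; factors 1.01 and 0.986) to CPM. Genes with under 10 reads over both libraries (2057) were left out, and 0.5 CPM was added before log2 was taken. The totals were 54878310 and 35294629 reads. With 1 library per label there are no residual degrees of freedom for the quasi-likelihood test of edgeR, so calls rest on a 2-fold difference. Intervals put 95% Clopper-Pearson bounds of the share of reads on the log2 scale, and levels have Poisson intervals. Reads carry no molecular identifiers, and both cover counting error only. At this depth 3 reads were worth 0.0539 CPM in the DR-labelled library and 0.0862 CPM in the WT-labelled library.

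The members and lists were chosen from general knowledge with earlier results of these data known, and the motif after the table had been read. Genes named are the 10 members, all genes of the eIF2, bZIP and paralogue lists, and in other lists the called genes whose mean CPM reached 1 and the gene with the highest mean level per kb. Of the listed genes, CEBPE, SLC7A3, FGF21, TYR and S100B were not analysed here, and ASPG and the marker SOX10 had under 10 reads. RefSeq tables of GRCh38.p14 served for promoter windows and overlaps, matched by NCBI Gene ID, and all 10 members matched. The interval and fold computation was checked on simulated counts. These varied by read counting alone, so the check does not cover variation between cultures. Alternatives were library totals, DESeq2 1.42.0 size factors, pseudocounts of 0.1 and 5 CPM, other filters, other fold thresholds, counts left unrounded and levels without length correction. Python 3.11.15, SciPy 1.17.1, NumPy 2.4.6, pandas 2.3.3 and Matplotlib 3.10.9 were used.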

Additional observations from a re-analysis of the deposited data

How the results depend on the processing

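No paired analysis was possible because each label has 1 library, and for the same reason no replicate could be left out. The number of the 10 genes called lower, 1 (CHAC1), was the same with library totals, DESeq2 size factors, a pseudocount of 0.1 CPM, no filter, at least 50 reads, unrounded counts and a call that also asked for an interval without 0. It was 0 with a pseudocount of 5 CPM, which shrinks low genes, and with a log2 threshold of 2. It was also 0 when a mean of 10 CPM was required, which leaves CHAC1 and DDIT3 out. At a threshold of 1.5-fold it was 3 (CHAC1, ATF4 and SESN2), beside 11.3% of all genes tested called lower. None of the 10 was called higher in any of these alternatives. Over all genes tested, 679 were called lower and 1203 higher, against 337 and 418 with a pseudocount of 5 CPM, 363 and 397 where a mean of 10 CPM was required, 189 and 338 at a log2 threshold of 2, and 1828 and 2425 at 1.5-fold. For the wider lists, 12 lower and 9 higher became 3 and 2 at a log2 threshold of 2, beside 1.17% and 2.09% of all genes tested. At 1.5-fold they became 37 and 17, beside 11.3% and 15.0%. The median log2 fold change of the 10 genes ranged from -0.49 to -0.41 over 5 alternatives, and no member changed sign. ATF4 moved outside its counting interval with library totals, to -0.75. Without length correction PSPH and SESN2, among others, took different places in the order of levels. The true spread between cultures cannot be given by 1 library per label.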
